A study of Saccharomyces cerevisiae with 18 samples.

Results

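The FUN14 heterozygote is a budding yeast (Saccharomyces cerevisiae) strain in which 1 copy of YAL008W, the FUN14 gene on chromosome I, was replaced. Its 3 RNA-seq libraries were set against the 9 libraries of the other 3 heterozygotes of the same series, 3 for each replaced gene. SEO1 (YAL067C) resembles permeases, the product of GIP4 (YAL031C) interacts with the phosphatase Glc7, and FUN26 (YAL022C) encodes a vacuolar nucleoside transporter. These are 12 of the 18 libraries in the series, and the remaining 6 are wild-type libraries, used here for context only. Libraries were assigned by their titles and by the ORF names of the deposited columns. All strains grew without treatment in YPD, a rich glucose medium, at 30 °C in log phase, in medium without the drug G418. The titles call the 4 strains heterozygous diploids, the characteristics of every library give BY4741 as the strain background, and the deposited wild-type columns carry the name BY4743. Each replaced gene was represented by 1 strain. Nothing in the labels says that replicates came from separate cultures or clones, so p-values here reflect library-to-library spread that could be purely technical.

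Fun14 is a small mitochondrial membrane protein of the family that includes the mammalian mitophagy receptor FUNDC1. Much of the description that follows concerns molecular chaperones, which refold, disaggregate or sequester damaged proteins. In yeast, many of their genes are switched on by the heat shock factor Hsf1, which binds repeated GAA units in promoters, while Msn2 and Msn4 act on a wider set of stress genes through the short AGGGG element.

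Expression was measured as estimated counts over the last 200 bases of each ORF and is given as CPM (counts scaled to a common library size), as mean ± SD over libraries. Total counts ran from 72922 to 99458.5 in the 3 FUN14 libraries and from 52293.5 to 132618 in the other 9. Of 6606 ORFs, 2659 passed the count filter and were tested. Libraries differed within strains: the leading principal component of the 12 heterozygote libraries held 48.3% of the variance, and the FUN14 libraries lay at 12.1, 26.5 and 19.9 on this axis. SEO1 replicates 2 and 3 lay at 25.2 and 18.6, on the same side, while SEO1 replicate 1 lay at -26.8, among the GIP4 libraries, which spanned -34.7 to -5.60. FUN26 libraries spanned -12.4 to 12.3. By a chi-square statistic of the counts per ORF, SEO1 replicate 1 differed from its own replicates by 7.38 and 7.81, against 1.33 to 2.06 between FUN14 libraries and 1.94 to 9.65 between FUN14 and other heterozygote libraries. SEO1 replicate 1 stood apart from the other libraries of its strain, and the counts of calls in the main comparison are given with and without it. The summed CPM of 14 haploid and a-specific mating genes was 118 to 276 in the FUN14 libraries, 97.3 to 380 in the other 9 and 2186 to 2748 in wild-type, which sets the wild-type libraries apart from all 4 heterozygotes. For 4 alpha-specific genes the sums were 30.3 to 78.7, 0 to 121 and 34.1 to 182 CPM. Diploid cells repress the haploid and a-specific genes, so the wild-type libraries may differ in ploidy, which was not tested. Wild-type means given below carry this limit.

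The level of FUN14 itself (chromosome 1, 136916 to 137512 in the deposited coordinates, whose build is not given in the sources used here) was 194, 136 and 171 CPM in its heterozygote. The other 9 libraries ran from 247 through a median of 276 to 358 CPM. All 3 FUN14 libraries lay below all 9 others, and the wild-type mean was 318 ± 51.0 CPM (n = 5 after averaging a near-identical pair). The means were 167 ± 28.9 CPM (n = 3) and 291 ± 36.9 CPM (n = 9), a ratio of 0.574. An exact two-sided permutation test over 220 arrangements of single libraries gave p = 0.00455 for a log2 difference of -0.72. That is the smallest p so many arrangements allow. The test treated libraries as exchangeable across strains, so its p does not measure the spread between strains. In the model across all ORFs, the log2 fold change was -0.78 ± 0.26 (SE), with an unadjusted p of 0.0091 and a Benjamini-Hochberg adjusted p of 0.212 by edgeR's quasi-likelihood test. Without FUN14 replicate 2, the lowest library, the fold change was -0.65 and the unadjusted p was 0.0587. In bulk RNA, fewer cells with a transcript and less transcript per cell cannot be told apart.

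Across the 2659 tested ORFs, few differences between the FUN14 heterozygote and the mean of the other 3 strains passed the adjusted threshold. No ORF was called higher (0%) and 1 ORF, IGD1, was called lower (0.0376%) at an adjusted p under 0.05 by edgeR's quasi-likelihood test. At an unadjusted p under 0.05, 95 ORFs were higher (3.57%) and 307 lower (11.5%), while the median log2 fold change was 0.02 and 51.6% of ORFs had a positive value. The split at that level depended on the filter. Without a count filter, 231 of 6332 ORFs were higher and 418 lower, and at a minimum count of 20, 95 of 1723 were higher and 209 lower. DESeq2, run as an alternative, called 5 higher and 50 lower. Without SEO1 replicate 1, edgeR called 3 higher (APJ1, BTN2 and HSP42) and 12 lower, among them IGD1, ICY1, CUE5, GLN1, CPR5, MYO5 and TIM44. Leaving out any 1 of the FUN14 libraries left no calls in either direction. In 35 ORFs (1.32%) all 3 FUN14 libraries lay above all 9 others, and in 36 (1.35%) they lay below.

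**Figure D1:**
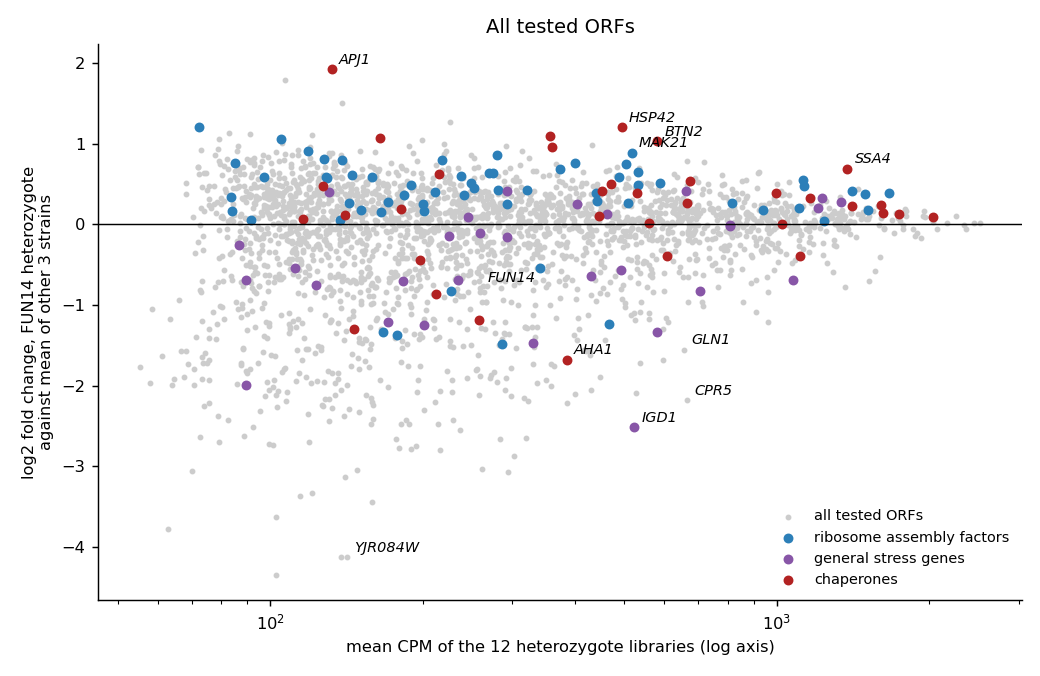
Log2 fold change of the FUN14 heterozygote against the mean of the other 3 strains (vertical axis) against the mean CPM of the 12 heterozygote libraries (horizontal log axis), 1 point for each of 2659 tested ORFs. Chaperones in red, ribosome assembly factors in blue and general stress genes in purple are drawn over the grey points of the other ORFs. A tail of ORFs with strongly negative values reaches -4.34. The lowest is MPC3, which was near the floor in the FUN14 libraries, at 10.8, 0 and 0 CPM. It passed the count filter through libraries of the other strains.

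Chaperone genes made up 7 of the 12 ORFs with the smallest p among those higher in the FUN14 heterozygote (APJ1, HSP42, BTN2, HSP78, SSA4, SIS1 and FES1). All 7 are on the chaperone list, which held 34 of the 2659 tested ORFs. Of 35 listed chaperones and heat shock factor targets, 34 were tested and 27 of them (79.4%) had a positive log2 fold change, against 51.6% of all tested ORFs. The list was chosen with earlier results of these data known, so its values and the count of 7 among 12 are a description and not a test. The median of the tested members was 0.23, against 0.02 for all tested ORFs. At an unadjusted p under 0.05, 11 were higher and 2 lower, beside 3.57% and 11.5% of all tested ORFs. None passed the adjusted threshold. In 6 members, APJ1, HSP42, BTN2, HSP78, FES1 and HSP104, all 3 FUN14 libraries lay above all 9 others, beside 1.32% of all tested ORFs. In none did they lie below, beside 1.35% of all tested ORFs. The list's median was also positive against each strain alone, at 0.24 against SEO1, 0.27 against GIP4 and 0.30 against FUN26. These comparisons share the FUN14 libraries. Within libraries, the median deviation of the list from the mean of the 12 heterozygotes was 0.08, 0.36 and 0.21 log2 units for FUN14 and ran from -0.28 to 0.14 in the other 9. GIP4 replicate 3 at 0.14 and FUN26 replicate 3 at 0.10 were above FUN14 replicate 1, so the groups overlapped on this measure. SEO1 replicates 2 and 3, which lay with the FUN14 libraries on the leading axis, were at -0.03 and -0.28.

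Among the genes that refold or disaggregate proteins, APJ1, which encodes a J-domain partner of Hsp70, showed the largest difference of the list. Its level was 237, 386 and 262 CPM in the FUN14 libraries, and ran from 44.7 through a median of 77.6 to 130 CPM in the other 9. The groups did not overlap, SEO1 replicates 2 and 3 stood at 130 and 58.3 CPM, and the wild-type mean was 67.0 ± 34.8 CPM. The FUN14 mean was 3.77 times that of the other 9, with a log2 fold change of 1.92 ± 0.35 (SE) and an adjusted p of 0.0757 by edgeR's quasi-likelihood test. These values rest on estimated counts of 20 to 25.5 per FUN14 library. HSP104 encodes the disaggregase of the cytosol and stood at 829, 999 and 826 CPM in the FUN14 libraries, against 448 to 754 (median 573) in the other 9, a ratio of 1.46. HSP78, its counterpart in the mitochondrial matrix, stood at 527, 507 and 643 CPM against 150 to 492 (median 310), a ratio of 1.90. For both genes every FUN14 library was higher than every other heterozygote library, although the closest values were near each other.

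The partners of Hsp70 followed. FES1, a nucleotide exchange factor for Hsp70, stood at 237, 303 and 262 CPM in the FUN14 libraries and ran from 67.9 through 114 to 224 CPM in the other 9. SIS1, an essential J-domain protein, stood at 420, 681 and 630 CPM, against 82.6 to 582 with a median of 280, so that 1 FUN26 library lay within the FUN14 range. SSA4, a stress-inducible Hsp70, stood at 1668, 2164 and 1922 CPM against 851 to 1897 with a median of 1085, and here SEO1 replicate 2 reached the FUN14 values. The log2 fold changes were 1.07 ± 0.33 for FES1, 1.10 ± 0.34 for SIS1 and 0.69 ± 0.20 for SSA4, each with an adjusted p of 0.193 by edgeR. SSA4 counts of 143 to 155 per FUN14 library were near the ceiling of 201 in the deposited values, where a fold change can be understated. In the largest library, SEO1 replicate 3, the same ceiling caps CPM below all 3 FUN14 values of SSA4, which can overstate a fold change.

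Of the genes whose products sequester misfolded proteins, HSP42, a small heat shock protein, stood at 786, 953 and 853 CPM in the FUN14 libraries. The other 9 ran from 177 through 359 to 544 CPM, and the lowest FUN14 library was well above the highest of them. The log2 fold change was 1.20 ± 0.26, with an adjusted p of 0.142 by edgeR. BTN2, which gathers misfolded proteins into deposits, stood at 995, 1006 and 807 CPM against 292 to 738 with a median of 401, and its log2 fold change was 1.03 ± 0.24 with an adjusted p of 0.193 by edgeR. The closest BTN2 values were those of SEO1 replicates 2 and 3, at 738 and 735 CPM. HSP26, the other small heat shock protein of the list, was low in the FUN14 libraries, at 67.8 ± 13.3 CPM against 173 ± 152, but the 9 others spanned 38.8 to 492 CPM and the unadjusted p was 0.0949.

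The remaining members with an unadjusted p under 0.05 had smaller differences. HSC82, an Hsp90, stood at 592, 605 and 603 CPM against 319 to 604 with a median of 405 CPM (log2 0.50 ± 0.22). SSA3, another inducible Hsp70, had a log2 fold change of 0.63 ± 0.28, and SSE1, an Hsp110 that also exchanges nucleotides on Hsp70, of 0.39 ± 0.18. All of these overlapped the other strains.

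**Figure D2:**
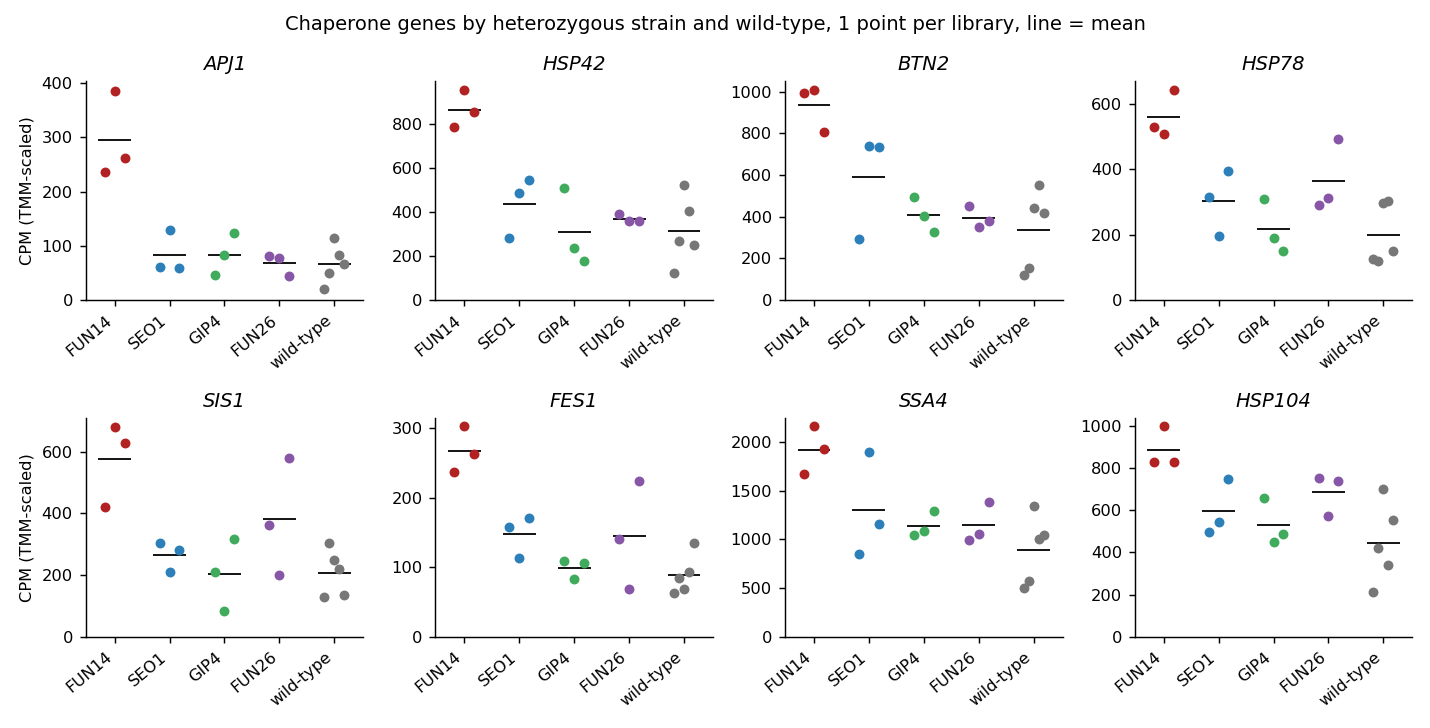
CPM of 8 chaperone genes (vertical axes) in each library of the 4 heterozygotes and wild-type (horizontal axis), 1 point per library, with a line at the group mean. The FUN14 libraries are the highest group in every panel, from a mean of 267 CPM for FES1 to 1918 CPM for SSA4, and do not overlap the other heterozygotes for APJ1, HSP42, BTN2, HSP78, FES1 and HSP104.

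Not every chaperone was higher. AHA1 and CDC37, which activate Hsp90 and bring kinases to it, had lower means in the FUN14 libraries, at 138 ± 17.3 against 468 ± 314 CPM and 131 ± 43.5 against 301 ± 162 CPM, with unadjusted p-values of 0.0128 and 0.0167 by edgeR. For AHA1, SEO1 replicates 2 and 3, at 81.1 and 97.2 CPM, were lower than all FUN14 libraries, and CDC37 also overlapped. HSF1, which encodes the heat shock factor, stood at 482 ± 173 CPM against 647 ± 167 CPM (unadjusted p = 0.133), and its window overlaps another ORF, YGL072C. The most abundant Hsp70 genes, SSA1 and SSA2, had log2 fold changes of 0.09 ± 0.27 and 0.13 ± 0.27. In the largest library, SEO1 replicate 3, the ceiling of 201 caps CPM below the means of both genes, so a difference can be hidden or enlarged. Close copies in these families (SSA1 with SSA2, SSA3 with SSA4, HSC82 with HSP82) may share counts. Among the mitochondrial matrix chaperones other than HSP78, HSP60 had a log2 fold change of 0.33 ± 0.21, SSC1 of 0.26 ± 0.19 and MDJ1 of 0.39 ± 0.27, each with an unadjusted p above 0.1.

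The promoters of the higher chaperones are shown because several carry the heat shock element, searched as 3 alternating units (GAA, TTC and GAA) with any 2 bases (NN) between neighbouring units, on either strand. The window is the 250 bases from 350 to 101 before the start codon in RefSeq assembly R64, printed 5′ to 3′ on the gene's strand with the element in capitals. Overlapping elements run together as 1 stretch of capitals.
HSP42, R64 chr4:806271-806520, + strand: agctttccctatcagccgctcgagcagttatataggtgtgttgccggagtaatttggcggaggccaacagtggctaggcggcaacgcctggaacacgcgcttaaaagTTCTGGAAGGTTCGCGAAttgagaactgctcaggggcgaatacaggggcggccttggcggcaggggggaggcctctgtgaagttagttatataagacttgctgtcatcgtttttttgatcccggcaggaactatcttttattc
BTN2, R64 chr7:772104-772353, + strand: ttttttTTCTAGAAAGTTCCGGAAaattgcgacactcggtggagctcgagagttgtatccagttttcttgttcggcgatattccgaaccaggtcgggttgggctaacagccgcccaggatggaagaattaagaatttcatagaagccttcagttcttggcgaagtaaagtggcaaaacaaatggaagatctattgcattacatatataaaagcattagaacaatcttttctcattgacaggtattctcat
SIS1, R64 chr14:619666-619915, - strand: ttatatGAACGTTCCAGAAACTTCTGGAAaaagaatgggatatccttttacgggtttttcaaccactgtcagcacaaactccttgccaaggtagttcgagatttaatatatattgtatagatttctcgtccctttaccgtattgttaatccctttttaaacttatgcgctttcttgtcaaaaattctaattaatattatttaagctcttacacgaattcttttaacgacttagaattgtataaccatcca
FES1, R64 chr2:444794-445043, - strand: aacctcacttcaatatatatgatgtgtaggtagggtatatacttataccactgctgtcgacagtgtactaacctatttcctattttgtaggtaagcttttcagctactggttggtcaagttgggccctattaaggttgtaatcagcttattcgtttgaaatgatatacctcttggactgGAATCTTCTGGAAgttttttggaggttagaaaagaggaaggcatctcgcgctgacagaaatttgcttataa
HSP78, R64 chr4:974344-974593, - strand: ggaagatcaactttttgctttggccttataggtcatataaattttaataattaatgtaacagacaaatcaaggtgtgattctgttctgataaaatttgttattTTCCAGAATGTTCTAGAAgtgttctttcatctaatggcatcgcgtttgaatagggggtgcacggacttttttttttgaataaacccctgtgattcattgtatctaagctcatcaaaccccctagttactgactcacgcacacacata
HSP104, R64 chr12:88273-88522, + strand: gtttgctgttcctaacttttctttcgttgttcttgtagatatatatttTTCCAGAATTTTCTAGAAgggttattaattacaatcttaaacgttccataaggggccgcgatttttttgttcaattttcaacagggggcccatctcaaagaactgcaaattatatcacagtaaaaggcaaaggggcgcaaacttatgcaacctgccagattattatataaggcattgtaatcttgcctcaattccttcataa
The element was present in 0.900% of 6001 protein-coding promoter windows, in 1.40% of the 2429 windows of tested ORFs and in 14 of the 34 windows of the tested chaperone list (41.2%). Part of the last share follows from the list itself, which includes heat shock factor targets. Of the 12 ORFs with the smallest p among those higher in the FUN14 heterozygote, 5 held the element. Of the 11 windows among the 12 lower ORFs none did. HSP42, BTN2, HSP78 and HSP104 each held 2 overlapping elements, SIS1 held 3 and FES1 held 1, whereas the APJ1 and SSA4 windows held none in this form. AHA1, whose mean was lower, held 1. Over all 34 tested ORFs with the element, 26 (76.5%) had a positive fold change and the median was 0.21, against 51.9% and 0.03 for all tested ORFs with a window. The 20 of these that are not on the chaperone list had 15 positive values and a median of 0.20, and none reached an unadjusted p under 0.05. The 20 listed chaperones without the element had 16 positive values (80.0%) and a median of 0.19, and 4 were higher at that level, so listed chaperones were positive about as often without it. A match is a description of letters, not of binding.

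The call that passed the adjusted threshold was IGD1 (chromosome 6, 182262 to 182849), which encodes an inhibitor of the glycogen debranching enzyme. IGD1 stood at 124, 136 and 65.6 CPM in the FUN14 libraries, against 292 to 1053 CPM with a median of 705 in the other 9. In the FUN14 libraries these values rest on estimated counts near or below the filter's minimum count of 10. Every FUN14 library was below every other heterozygote library, the nearest being SEO1 replicates 2 and 3 at 292 and 334 CPM, and the wild-type mean was 626 ± 330 CPM. Wild-type replicate 3, at 84.1 CPM, lay within the FUN14 range. IGD1 fell by 2.51 on the log2 scale (SE 0.36, adjusted p = 0.0102, edgeR), to 0.164 of the mean of the other 9. It was also called lower against GIP4 alone (log2 -3.07, adjusted p = 0.00287) and against FUN26 alone (-2.48, adjusted p = 0.0434), but not against SEO1 alone (-1.99, adjusted p = 0.51). With any 1 FUN14 library left out its fold change stayed between -2.66 and -2.24 and its adjusted p was between 0.0709 and 0.235. The IGD1 promoter window holds 2 copies of AGGGG, which read CCCCT on the printed strand and are in capitals.
IGD1, R64 chr6:182962-183211, - strand: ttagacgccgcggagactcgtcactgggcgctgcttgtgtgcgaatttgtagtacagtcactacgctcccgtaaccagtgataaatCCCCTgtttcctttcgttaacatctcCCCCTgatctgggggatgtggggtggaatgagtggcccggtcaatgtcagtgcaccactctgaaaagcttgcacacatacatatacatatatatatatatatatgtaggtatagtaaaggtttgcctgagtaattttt
AGGGG was present in 22.0% of the windows of tested ORFs and in 28 of the 31 windows of the tested general stress list. It was also present in 3 copies each in the HSP42, HSP78 and HSP104 windows printed above, where it is not marked. Over the 535 tested ORFs with AGGGG the median was -0.02.

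Other lower ORFs did not pass the adjusted threshold. ICY1 stood at 75.3, 60.5 and 118 CPM in the FUN14 libraries and ran from 202 through 318 to 839 CPM in the other 9, without overlap (log2 -2.15 ± 0.43, adjusted p = 0.108, edgeR). The estimated counts of ICY1 were under the filter's minimum count of 10 in each FUN14 library. GLN1, which encodes glutamine synthetase, stood at 280, 197 and 315 CPM against 468 to 1541 with a median of 660, again without overlap (log2 -1.55 ± 0.37, adjusted p = 0.193, edgeR). SAM3, a permease for S-adenosylmethionine, was at 131 ± 40.7 against 341 ± 94.7 CPM and also did not overlap. CUE5, a ubiquitin-binding receptor of selective autophagy, stood at 108, 106 and 144 CPM against 97.3 to 811 with a median of 583, and SEO1 replicate 2, at 97.3 CPM, was below all FUN14 libraries. CPR5, a cyclophilin of the endoplasmic reticulum, stood at 301, 60.5 and 131 CPM against 97.3 to 1235 with a median of 1025 CPM, and SEO1 replicates 2 and 3 lay within the FUN14 range. In MYO5, a type I myosin, SEO1 replicate 3 did so at 46.7 CPM. These SEO1 libraries are the ones beside FUN14 on the leading axis, and the part of that axis in the lower values was not tested. YGR115C was lower too (101 against 479 CPM), but its window overlaps YGR114C and its reads cannot be told apart from those of that ORF.

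**Figure D3:**
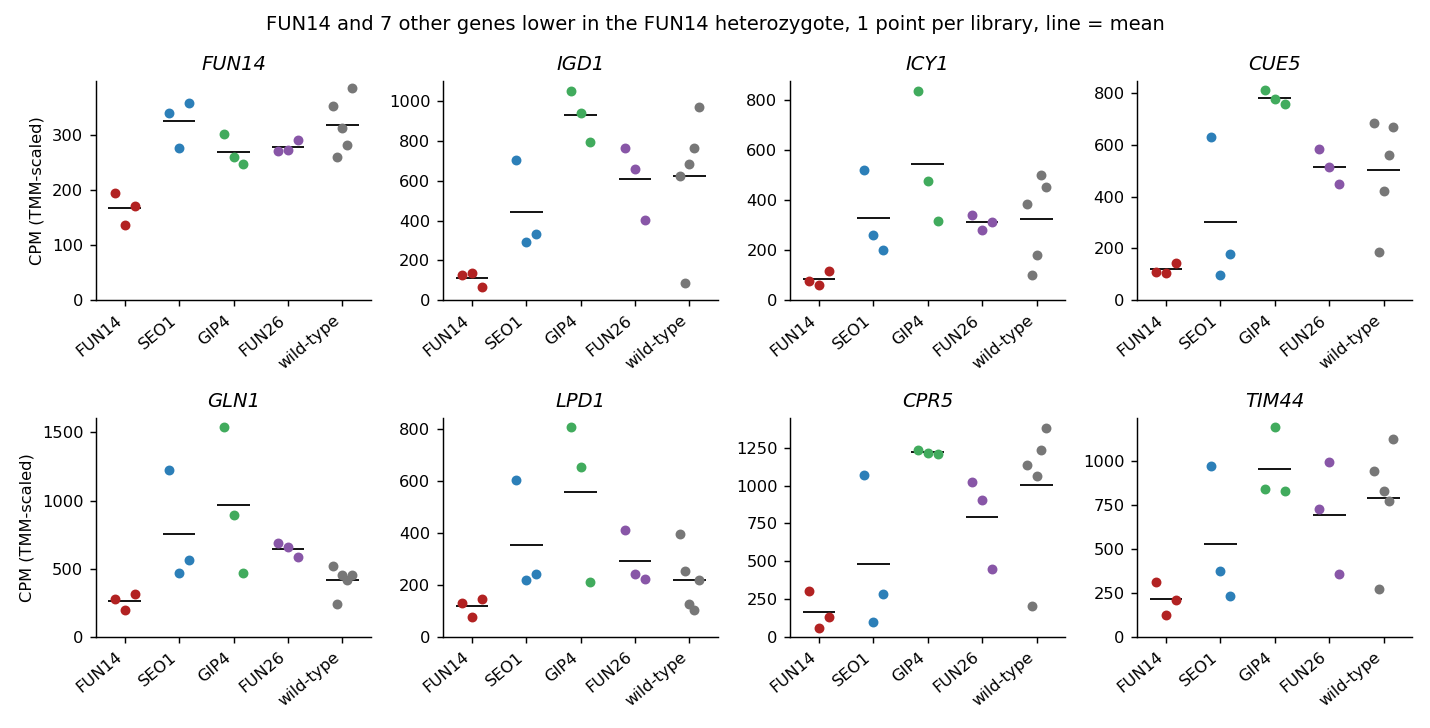
CPM of FUN14 and 7 genes with lower values in the FUN14 heterozygote (vertical axes) in each library of the 4 heterozygotes and wild-type (horizontal axis), 1 point per library, with a line at the group mean. For FUN14, IGD1, ICY1, GLN1 and LPD1 no FUN14 library reaches the other heterozygotes, while for CUE5, CPR5 and TIM44 at least 1 SEO1 library comes down to the FUN14 values.

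The general stress and cell wall lists had negative medians. Of 46 listed general stress genes of Msn2 and Msn4, 31 were tested, 10 were positive and the median was -0.26. IGD1 was called, and 7 members, IGD1 included, were lower and 1 higher at an unadjusted p under 0.05, beside 11.5% and 3.57% of all tested ORFs. Beside IGD1, the lower members were HXK1 (a hexokinase, whose window overlaps YFR052C-A), GSY2 (glycogen synthase), PAI3 (a proteinase inhibitor), STF2, DCS2 and DDR2, with log2 fold changes from -1.99 for DDR2 to -0.64 for STF2, and the higher one was ROQ1 at 0.43. GSY2 stood at 258, 227 and 315 CPM against 246 to 1331 with a median of 534, so that the groups overlapped. The list's median was -0.04 against SEO1, -0.24 against GIP4 and -0.46 against FUN26. Some members, such as TPS1 (trehalose synthesis), had positive values, at 456 ± 116 against 385 ± 109 CPM.

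Of 26 tested cell wall genes, 5 were positive and the median was -0.30, with 5 lower and 1 higher at an unadjusted p under 0.05 (11.5% and 3.57% of all tested ORFs) and none called. SED1, an abundant wall glycoprotein, stood at 1141, 1135 and 1128 CPM against 1178 to 2101 with a median of 1696 CPM, without overlap. PST1, a wall protein, stood at 194, 75.7 and 184 CPM against 212 to 656 with a median of 374 CPM, also without overlap, and SLT2, the kinase of the wall integrity pathway, at 75.6 ± 39.8 against 273 ± 152 CPM, with overlap. TIP1, another wall protein, was the higher member, at 0.50 ± 0.18 on the log2 scale. The list's median was -0.09 against SEO1, -0.41 against GIP4 and -0.30 against FUN26.

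Of 15 tested genes on the tricarboxylic acid cycle list, 5 were positive, the median was -0.09 and 4 (LPD1, MDH1, LSC1 and MPC2) were lower at an unadjusted p under 0.05, a level that 11.5% of all tested ORFs reached. MPC2 encodes a mitochondrial pyruvate carrier subunit and is not itself a cycle gene. The list's median was -0.16 against SEO1, -0.22 against GIP4 and -0.59 against FUN26, and with 1 library left out it reached -0.41. LPD1, the dihydrolipoamide dehydrogenase shared by mitochondrial dehydrogenase complexes, stood at 129, 75.7 and 144 CPM against 212 to 807 with a median of 243 CPM. No FUN14 library reached the others. MDH1, malate dehydrogenase, stood at 118, 60.5 and 91.8 CPM against 97.3 to 766 with a median of 291 CPM, and the lowest of these was again SEO1 replicate 2. Of 21 glycolytic and fermentation genes, 7 were positive, the median was -0.06 and 4 (HXK1, PYK2, PGK1 and HXK2) were lower at that level. In sterol and fatty acid synthesis, ERG11, OLE1, ERG1 and ACC1 were higher at an unadjusted p under 0.05, beside 3.57% of all tested ORFs, among 20 tested members with a median of 0.04. Another member, the transcription factor gene UPC2, was lower at that level (log2 -2.74 ± 0.73), beside 11.5% of all tested ORFs. UPC2 was near the floor in the FUN14 libraries, at 21.5, 15.1 and 13.1 CPM, against 16.2 to 287 CPM in the other 9. ERG1, squalene epoxidase, stood at 549, 530 and 636 CPM against 211 to 492 with a median of 404 CPM, without overlap. In amino acid synthesis under Gcn4, 23 of 46 tested members were positive and the median was 0.01.

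Genes for making ribosomes had positive medians that differed between the comparison strains. Of 62 tested ribosome assembly factors, 56 (90.3%) were positive with a median of 0.42, and 14 were higher and 2 lower at an unadjusted p under 0.05 (3.57% and 11.5% of all tested ORFs), none called. The median was 0.12 against SEO1, 0.75 against GIP4 and 0.37 against FUN26, and in none of the 62 did the FUN14 libraries lie above all 9 others, beside 1.32% of all tested ORFs. MAK21, a factor of the large subunit, stood at 581, 946 and 800 CPM against 191 to 681 with a median of 441 CPM. LTV1, a factor of the small subunit, stood at 355, 424 and 433 CPM against 91.2 to 428 with a median of 213 CPM. In both the highest of the other libraries was from the SEO1 strain, and the lowest was GIP4 replicate 1. In DRS1, a helicase of large-subunit assembly that is not on the list, the FUN14 libraries, at 624, 772 and 630 CPM, did lie above all 9 others, which ran from 128 through 340 to 521 CPM. Of the cytosolic ribosomal protein genes, 44 of 56 of the small subunit and 49 of 74 of the large subunit were positive, with medians of 0.19 and 0.11. RPL19A stood at 829, 991 and 918 CPM against 392 to 768 with a median of 649 CPM, and many of these genes have near-identical copies that may share counts. Mitochondrial ribosomal protein genes had a median of -0.05 over 33 tested, with 7 lower and none higher at an unadjusted p under 0.05, beside 11.5% and 3.57% of all tested ORFs.

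**Figure D4:**
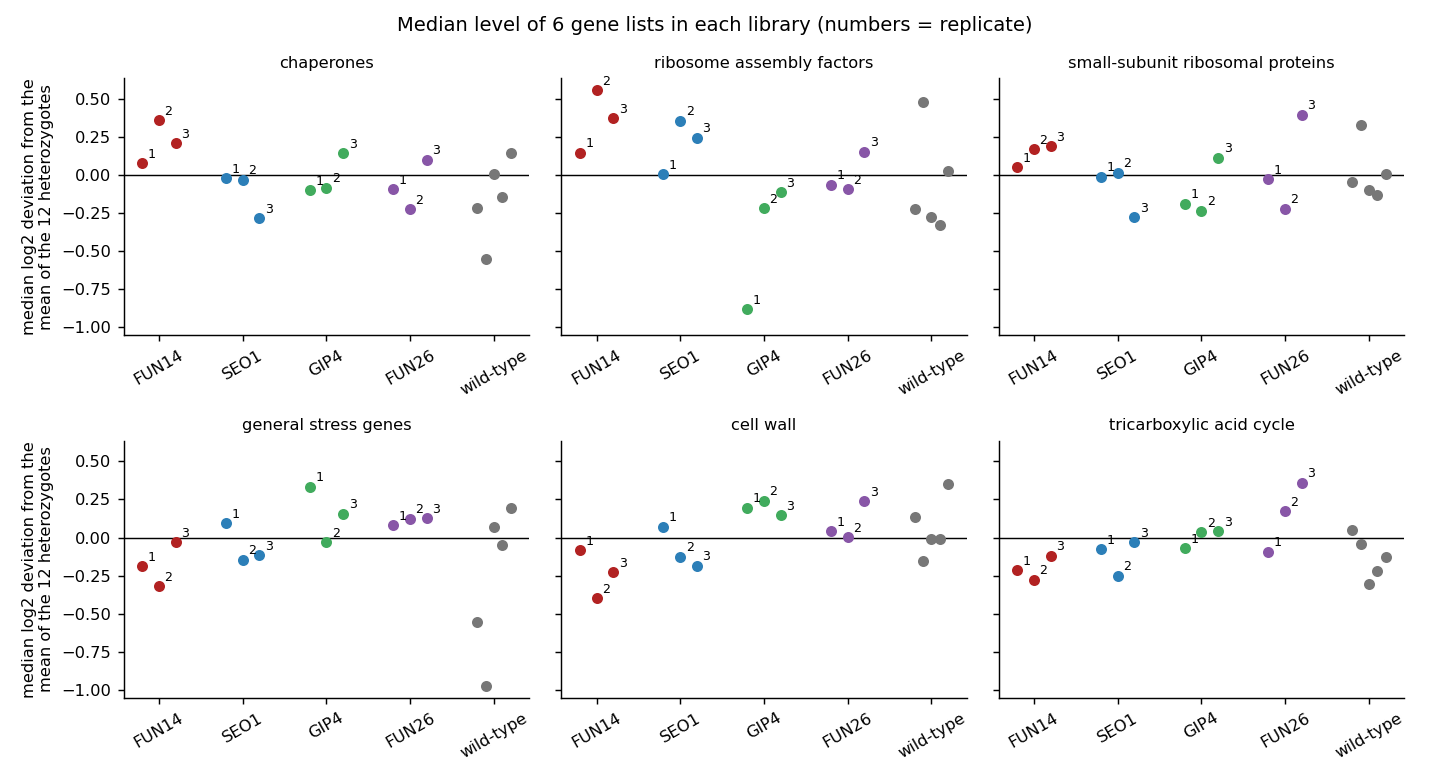
Median deviation of 6 gene lists (vertical axis, log2 units from the mean of the 12 heterozygote libraries) in each library (horizontal axis, by strain, with the replicate number beside each heterozygote point). Chaperone medians of the FUN14 libraries lie at 0.08, 0.36 and 0.21, and ribosome assembly medians are above 0 in all 3 FUN14 libraries and reach -0.88 in GIP4 replicate 1.

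Because Fun14 is a mitochondrial protein, genes of the organelle were set apart. Of 16 tested genes of the mitochondrial outer membrane, contact sites and dynamics, 8 were positive and the median ratio was 0.997. FUN14 itself and LAM6, 2 of the 16, were lower at an unadjusted p under 0.05, close to the 11.5% of all tested ORFs. LAM6, a sterol transfer protein of contacts between the endoplasmic reticulum and mitochondria, stood at 96.9, 68.1 and 39.4 CPM against 106 to 219 with a median of 151 CPM. The groups did not overlap, and the log2 fold change was -1.19 ± 0.40 with an adjusted p of 0.213 by edgeR. The import receptor gene TOM20 was at 105 ± 30.4 against 166 ± 53.3 CPM (unadjusted p = 0.108), and OM45 at 1534 ± 244 against 1275 ± 289 CPM (unadjusted p = 0.186). Of 22 import and inner membrane genes, 8 were positive with a median of -0.12, and TIM44 and TIM17 were lower at an unadjusted p under 0.05, a share below the 11.5% of all tested ORFs. TIM44, which tethers Hsp70 to the import channel, stood at 312, 121 and 210 CPM against 233 to 1192 with a median of 830 CPM, so that SEO1 replicate 3 overlapped. Of 30 nuclear-encoded respiratory chain and ATP synthase genes, 16 were positive with a median of 0.00, and CYC1 and COX5B were lower at that level, again a share below 11.5%.

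The neighbours of FUN14 were examined because they share the replaced locus. Of 16 other ORFs within 8 systematic numbers of YAL008W, 9 were tested. Of these, 6 had positive and 3 negative log2 fold changes, with a median of 0.09, and none was called. SYN8, an endosomal SNARE gene, had the highest value, 0.48 ± 0.24, at 484, 651 and 512 CPM against 246 to 584 with a median of 395 CPM. EFB1, which encodes a subunit of the elongation factor exchange complex, had the lowest, -0.56 ± 0.26, at 576, 484 and 571 CPM against 397 to 1256 with a median of 869 CPM, with an unadjusted p of 0.0457 and an adjusted p of 0.317 by edgeR. Both overlapped the other strains. The adjacent ERP2, which lies 187 bases from FUN14, stood at 150 ± 54.6 against 140 ± 93.4 CPM, and SPO7 and MDM10 on the other side were below the count filter. YAL004W lies within SSA1 on the opposite strand, so its counts may hold SSA1 reads, whereas the counted window of SSA1 lies outside YAL004W. Over chromosome I as a whole, 44 tested ORFs had a median of -0.04.

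**Figure D5:**
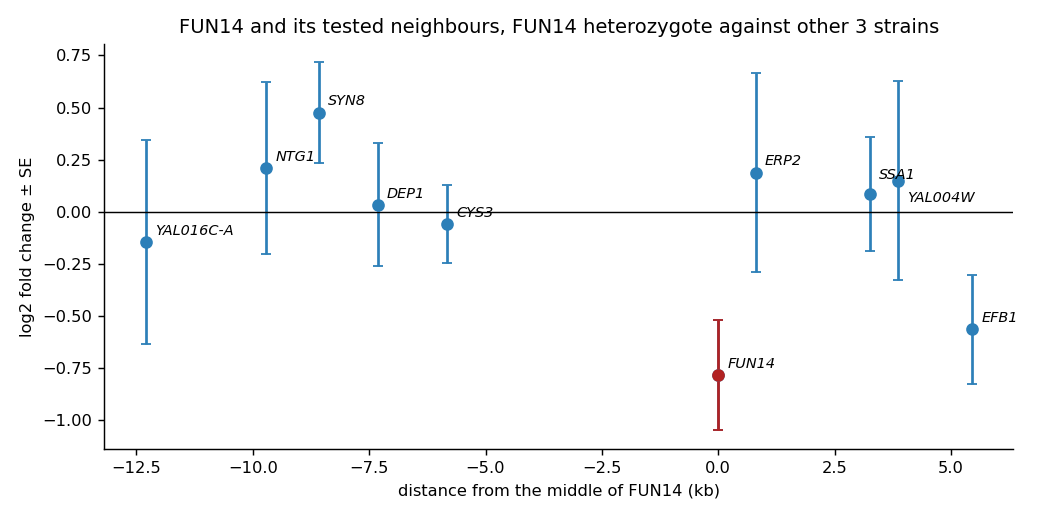
Log2 fold change ± SE (vertical axis) of FUN14 and its 9 tested neighbours against distance from the middle of FUN14 in kb (horizontal axis), FUN14 heterozygote against the mean of the other 3 strains. FUN14, in red, lies at -0.78, and the error bars of most neighbours reach 0.

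Set against each strain alone, the FUN14 heterozygote differed in number of calls. The single-strain comparisons kept SEO1 replicate 1 and were not repeated without it, so its distance from its own replicates enters the comparison with SEO1. Against SEO1 none was called higher or lower by edgeR (29, or 1.09%, and 121, or 4.55%, at an unadjusted p under 0.05), and against FUN26 none was higher and 1, IGD1, was lower (0.0376%), with 1.77% and 6.21% at an unadjusted p under 0.05. Against GIP4, 7 were higher (0.263%) and 46 lower (1.73%), with 7.18% and 17.6% at an unadjusted p under 0.05. The 7 were HSP42, RTS3 (linked to a type 2A phosphatase), the listed ribosome assembly factors ENP2 and LTV1, and DRS1, LOC1 and TSR2, which also act in ribosome assembly, with log2 fold changes from 1.28 for LOC1 to 1.92 for RTS3. LTV1 stood at 91.2, 142 and 177 CPM in the GIP4 libraries and ENP2 at 128, 130 and 124 CPM, against 355, 348 and 380 CPM for ENP2 in the FUN14 libraries. The 46 included IGD1, ICY1, CUE5, GLN1, GPD1 (glycerol synthesis), HXT7 (a hexose transporter), MPC3 (a mitochondrial pyruvate carrier subunit), MDH1 and LPD1. MPC3, at 10.8, 0 and 0 CPM, and HXT7, at 21.5, 15.1 and 52.5 CPM, were near the floor in the FUN14 libraries. Others of the 46 were as low there, among them UPC2, LOT6 and PET191. Such ORFs passed the count filter through libraries of the other strains. The GIP4 libraries lay at -34.7, -26.9 and -5.60 on the leading axis, and without the GIP4 strain the contrast held no calls (41 higher and 160 lower at an unadjusted p under 0.05). The part of that axis in these calls was not tested.

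Across the tested ORFs with a known GC content (91.4%), the log2 fold change correlated with GC at -0.23, a correlation across ORFs that share the same libraries. With a GC trend per library taken out, APJ1 stood at 1.66, HSP42 at 1.24 and IGD1 at -2.29 (adjusted p = 0.0855, 0.0855 and 0.00308 by edgeR), and the medians of the chaperone and ribosome assembly lists were 0.30 and 0.31.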

How the data were processed

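The authors sequenced oligo-dT primed RNA of log-phase cells and deposited estimated counts over the last 200 bases of 6606 ORFs in 18 libraries. Bowtie 0.12.5 is named in the submitters' processing notes, and the build is not given in the sources used here. Of 118908 deposited values, 93.0% are whole and 6.98% lie midway between whole numbers, none exceeds 201, and all were rounded to whole numbers for testing. ORFs were kept by edgeR's filter at a minimum count of 10, and libraries scaled by TMM. The 12 heterozygote libraries were fitted by strain with edgeR 4.0.16 (quasi-likelihood test, R 4.3.3), FUN14 was set against the mean of the other 3 strains and against each alone, and p-values were adjusted by Benjamini-Hochberg over all tested ORFs, with 0.05 as threshold. CPM carry library scaling. Wild-type replicates 1 and 2 agreed within sampling noise (chi-square 0.969 per ORF) and were counted as 1. The model was tested on simulated data. R64 gave symbols, GC content and promoters (5918 ORFs paired, 688 unpaired). Alternatives included DESeq2 1.42.0 and leaving out each library, and a GC trend was added after seeing the data. Members and gene lists were chosen with earlier results of these data known, the named ORFs being the 12 with the smallest p in each direction, up to 6 per list, and those called. The neighbours are those within 8 systematic numbers of FUN14.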

Additional observations from a re-analysis of the deposited data

Results flagged for a closer look

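Of 50 groups of libraries examined, for 25 genes, 4 held a library far from the rest by Dixon's criterion, and chance flags about 1 in 20 groups. ICY1 stood at 839 CPM in GIP4 replicate 1, while the other 8 heterozygote libraries outside FUN14 lay between 202 and 523 CPM. The other 3 flags were all wild-type replicate 3. CPR5 was at 202 CPM there, and between 1062 and 1382 CPM in the remaining wild-type libraries. In the same library DRS1 stood at 857 CPM against 239 to 404, and NUT1, a Mediator subunit gene, at 336 CPM against 36.2 to 114. Wild-type libraries enter no main comparison.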

How the results depend on the processing

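Against 0 higher and 1 lower call, DESeq2 gave 5 and 50 (516 adjusted p-values were NA), and wild-type in the fit gave 0 and 0. The other 9 libraries as 1 group gave 1 and 1. Leaving out 1 library gave 0 to 3 higher and 0 to 12 lower, and leaving out the GIP4 strain 0 and 0. With SEO1 replicate 2 left out, 1 was higher (APJ1) and 2 were lower, and leaving out GIP4 replicate 1 made HSP42 the 1 higher call. IGD1 had an adjusted p of 0.157 with wild-type in the fit and 0.0579 without the GIP4 strain (edgeR). The count of ORFs above all other libraries ran from 36 to 114 with 1 library left out and that below from 34 to 115. Without the SEO1 strain these counts were 122 and 194, without the FUN26 strain 56 and 72, without the count filter 91 were above, and 22 were below at a minimum count of 20. The FUN14 level moved between -0.91 and -0.65 with 1 library left out. The cause of these shifts was not tested, beyond fewer libraries or ORFs entering.

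ERP2 changed sign without FUN14 replicate 2 (-0.11) and with the GC trend removed (-0.010), as did SSA1 without FUN14 replicate 2 (-0.035). With 1 library left out, ERP2 ran from -0.11 to 0.40 and SSA1 from -0.035 to 0.23. Over 26 settings the chaperone median stayed between 0.17 and 0.30 and the ribosome assembly median between 0.27 and 0.54. The general stress median ran from -0.37 to -0.05, cell wall from -0.46 to -0.21, the tricarboxylic acid cycle from -0.41 to 0.00 and sterol and fatty acid synthesis from -0.11 to 0.43.

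With replicate number as a block, 6 were called higher (APJ1, HSP42, DRS1, BTN2, SIS1 and RTS3) and 73 lower. Deviations of 18 same-numbered pairs correlated between -0.153 and 0.402 (median 0.196, 11 over 0.1), against a median of -0.105 over 36 pairs of different number (7 over 0.1), and 8 of 12 libraries correlated best with their own number. Deviations were taken from each strain's mean and so cancel within a strain. Lower correlations for pairs of different number thus follow in part from higher same-numbered ones and are not separate evidence. The same-numbered correlations are a hint from the data that equal numbers share something. Since not every pair was over 0.1 and no label ties the numbers to a batch, the block was kept out of the main comparison. The ceiling of 201 limits abundant genes, and 20 to 25.5 counts limit low ones such as APJ1. Several lower genes, among them IGD1, ICY1, CUE5, MYO5 and LAM6, rested on fewer counts than APJ1 in every FUN14 library.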

Other observations

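Several ORFs not described above separated the FUN14 libraries from the other 9 without passing the adjusted threshold. AFT1, the iron-responsive transcription factor gene, stood at 21.6 CPM against 191 CPM on average, and all 3 FUN14 libraries were below all 9. The FUN14 level of AFT1 was near the floor of the counts. ERP1, a p24 family gene of vesicle transport, stood at 484, 484 and 603 CPM against 219 to 424 with a median of 292 CPM. RPS4B, a small-subunit ribosomal protein gene with a near-identical copy, stood at 269, 393 and 341 CPM against 91.2 to 259 with a median of 159 CPM. PLB2, a phospholipase B gene, stood at 215, 272 and 328 CPM in the FUN14 libraries, above all 9 others. Of 12 tested genes of iron, copper and manganese handling, 4 were positive and the median was -0.38, and of 34 proteasome genes 15 were positive with a median of -0.03.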
